A study of Mus musculus with 24 samples.

Results

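Interferon-stimulated genes are genes whose RNA rises when a cell senses interferon, the secreted antiviral signal of vertebrates. A list of 39 such mouse genes was examined, chosen by symbol, with earlier results of these data known but with no measured value in the rule, and 36 of them were found among the 14922 genes of the expression table. *Mx1*, *Zbp1* and *Sp100* were not in it. Interferon binds a receptor at the cell surface, whose kinases phosphorylate transcription factors such as STAT2. STAT2 and IRF9 are parts of a complex that binds the interferon-stimulated response element (ISRE) in promoters. The gamma-activated site (GAS) is a second element known from genes that respond to interferon gamma. Many of the induced genes encode sensors of viral RNA, proteins that block viral replication, or parts of the machinery that presents peptides to T cells. A low tonic level of the same genes is present in many unstimulated cells, and embryonic neural cultures were given no interferon here as far as the labels state.

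RNA sequencing (polyA) of NSCs (neural stem cells in primary culture, from female mouse embryonic cortex at E14.5, under 10 passages) compared cells homozygous for the MommeD43 allele of *Smchd1*, a chromatin repressor, with controls. FVB_WT (Smchd1+/+, FVB/NJ) held 6 libraries of 5 lines and FVB_MD43 (Smchd1MommeD43/MommeD43, the ENU-induced allele on FVB/NJ) held 5 of 4. B6GFP_WT (C57BL/6J) held 6 libraries of 4 lines and B6GFP_MD43 (C57BL/6J, the same change made by genome editing in zygotes) held 5 of 4. Both B6GFP groups carried *Smchd1* fused to GFP, although the labels call the controls Smchd1+/+, so strain and fusion cannot be told apart. Both FVB groups lacked the fusion. The labels number the lines but do not tie them to animals, so p-values measure the spread between these lines and their libraries. In the fit, libraries of the same line were correlated at only 0.0827, so repeat libraries counted almost as separate ones.

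Values were deposited as log2 CPM (counts scaled to library size, on the log2 scale, where 0 is 1 CPM). The table held 24 columns. Since 2 of them were identical to their group mates' average, they were left out, which left 22 libraries of 17 lines. FVB libraries were made in batches 1 and 2, and B6GFP libraries in batches 1 and 3. The deposited values had been adjusted so that batch means were equal within a strain over all 24 columns, so a library with high values lowers the values of its batch mates. By the study's methods strain and sex also entered the correction, so the size of a strain difference in these values may have been altered. Absolute depth was unknown. Relative to the deepest library, batch 1 libraries had depths of 0.526 to 0.893. Batch 2 was shallower (0.137 to 0.19), and batch 3 spanned 0.435 to 1. Most NSC markers were abundant in every library, with *Sox2* between 7.39 and 8.27 log2 CPM and *Nes* between 9.63 and 10.8. *Pax6* was lower, between 4.34 and 5.23, and *Hes5* was lower and more variable, between 0.96 and 5.48. Of 14 microglia and macrophage markers, 12 (among them *Aif1*, *Ptprc*, *Csf1r* and *Cx3cr1*) were not in the table. *Smchd1* itself was between 6.58 and 7.42 log2 CPM in all groups, and since MommeD43 is a point change its RNA level does not check the labels. Before the group comparisons it has to be said that 2 batch 3 libraries stood apart in these genes, on the high side. B6GFP_MD43 replicate 3 held the highest value of its group for 33 of 36 members (19.0% of all genes), and B6GFP_WT replicate 4 for 21 of 36 (33.6%). On the low side, the batch 3 libraries of B6GFP_MD43 replicates 2 and 4 were each lowest for 16 members (22.6% and 32.05% of all genes). Their median member lay at -0.618 from the group median, beside 0.505 for B6GFP_WT replicate 4. Counts that rest on the 2 high libraries are given with and without these, and genes whose call changed are named.

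Promoters of some of these genes hold the letters of known interferon-response elements. RefSeq promoter windows on GRCm38.p6 (250 bases before to 50 after an annotated start) were at hand for 29 of the 36 members. The ISRE core was searched as GAAANNGAA and GAS as TTCNNNGAA, on both strands, and matches may overlap each other. The ISRE core was present in 16 of 29 members (55.2%) and in 909 of 11104 genes of the table with a window (8.19%). GAS was present in 8 of 29 members (27.6%) and in 896 of the 11104 (8.07%). A match is a run of letters and not a measured binding site. *Isg15* and *Ifit1* are shown because each held 3 overlapping or closely spaced cores, *Bst2* because it combined a pair of cores with a high level in these cells, and *Stat2* because this component of the ISRE-binding complex carries a core of its own. The windows lie at chr4:156200769-156201068 (minus strand, Isg15), chr19:34640639-34640938 (plus strand, Ifit1), chr8:71537423-71537722 (minus strand, Bst2) and chr10:128270248-128270547 (plus strand, Stat2). Capitals mark the ISRE core matches, and each sequence is written 5′ to 3′ along the gene.
Isg15: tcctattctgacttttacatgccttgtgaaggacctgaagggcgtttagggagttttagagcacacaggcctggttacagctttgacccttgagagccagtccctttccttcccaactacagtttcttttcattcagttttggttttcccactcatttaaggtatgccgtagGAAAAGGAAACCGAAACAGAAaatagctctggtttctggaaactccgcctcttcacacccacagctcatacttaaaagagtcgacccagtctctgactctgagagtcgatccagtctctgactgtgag
Ifit1: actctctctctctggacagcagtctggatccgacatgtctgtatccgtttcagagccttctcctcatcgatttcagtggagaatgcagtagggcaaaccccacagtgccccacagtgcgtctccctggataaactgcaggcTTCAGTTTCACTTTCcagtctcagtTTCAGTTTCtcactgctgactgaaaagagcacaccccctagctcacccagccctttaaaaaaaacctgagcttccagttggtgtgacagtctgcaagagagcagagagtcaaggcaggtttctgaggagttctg
Bst2: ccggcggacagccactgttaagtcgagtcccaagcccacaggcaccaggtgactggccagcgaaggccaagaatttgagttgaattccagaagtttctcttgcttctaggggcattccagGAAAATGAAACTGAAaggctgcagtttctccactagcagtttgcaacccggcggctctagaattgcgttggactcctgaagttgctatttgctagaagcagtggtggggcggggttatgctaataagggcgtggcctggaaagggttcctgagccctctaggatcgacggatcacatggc
Stat2: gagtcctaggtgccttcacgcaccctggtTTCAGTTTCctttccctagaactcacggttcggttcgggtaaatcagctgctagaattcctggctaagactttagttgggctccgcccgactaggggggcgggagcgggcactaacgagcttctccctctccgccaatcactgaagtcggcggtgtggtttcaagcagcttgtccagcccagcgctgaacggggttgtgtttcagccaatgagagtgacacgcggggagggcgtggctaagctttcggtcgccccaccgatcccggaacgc
The matches began 78, 72 and 66 bases before the annotated start in *Isg15*, and 109, 103 and 84 bases before it in *Ifit1*. Neighbouring cores with a spacing of 6 bases fuse into the longer runs seen in both genes. In *Bst2* the pair began 130 and 124 bases before the start. The single core of *Stat2* lay farther out, at 221 bases. No core was found in the windows of *Irf7*, *Irf9*, *Oasl2*, *Psmb8*, *Psmb9* and *Psmb10*, which says only that these letters were absent there.

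The members covered a wide range of basal levels. Per kilobase of annotated exon (log2 CPM per kb, mean over 22 libraries) the highest were *Ifitm2* at 6.14 and *Ifitm3* at 5.20, membrane proteins that restrict virus entry. *Bst2*, which tethers budding virions, followed at 3.96, then *Psmb10*, a proteasome subunit, at 3.38 and the guanylate-binding protein gene *Gbp3* at 3.23. The lowest were *Xaf1* at -4.22, *Oasl2* at -3.57 and *Ifit3* at -3.16. Per library, and not corrected for length, 17 of 36 members exceeded 1 CPM in all 22 libraries. Mean levels of *Irf7*, *Isg15*, *Ifit1*, *Ifit3*, *Usp18* and *Xaf1* lay below 1 CPM in all 4 groups, so no fold change is given for these 6. In batch 2, the shallowest, several libraries of *Isg15*, *Ifit1*, *Ifit3*, *Oasl2* and *Xaf1* shared the lowest value of the batch, which is what 0 reads gives. The heatmap of all members over all libraries shows these levels relative to each gene's own mean.

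**Figure D1:**
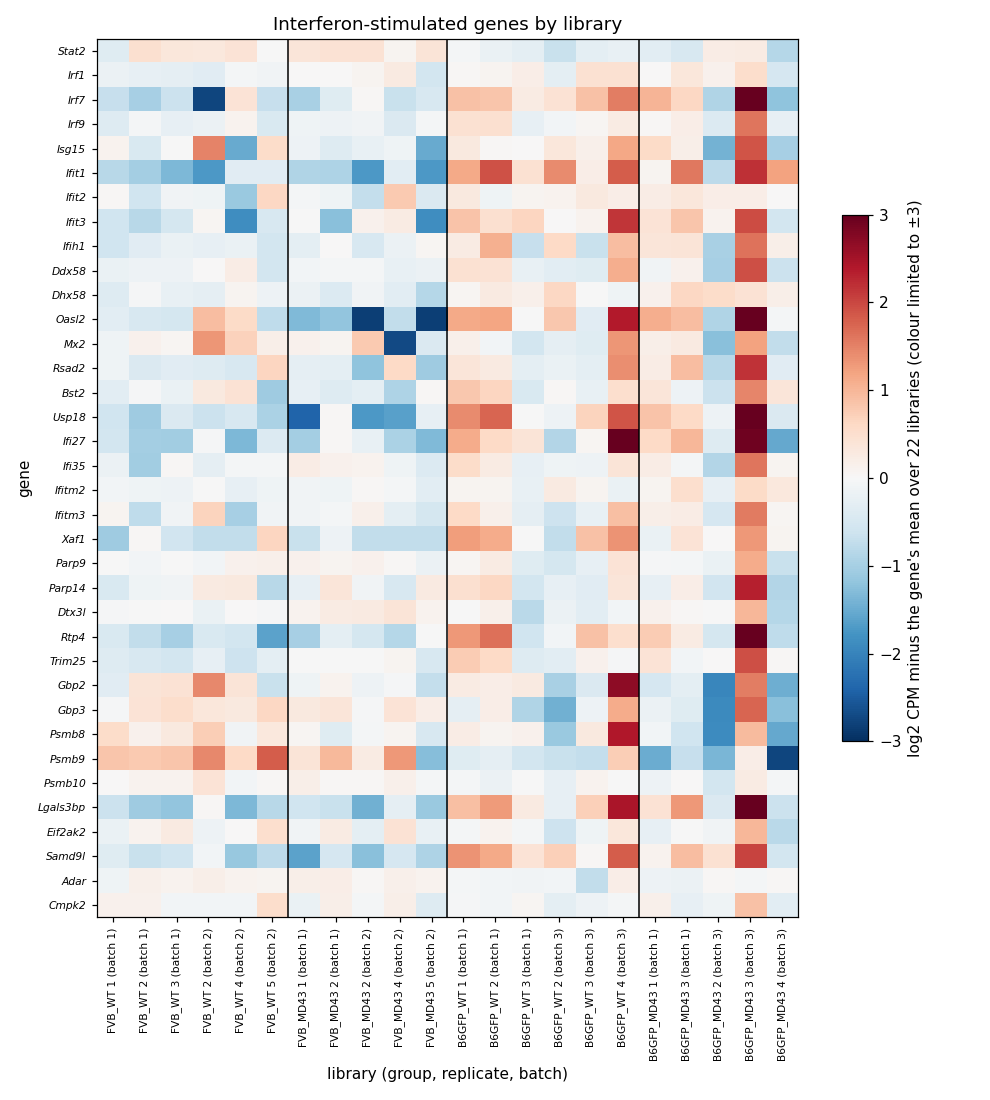
Heatmap of the 36 members (rows) in 22 libraries (columns, by group, replicate and batch, with black lines between groups). Colour is log2 CPM minus the gene's mean over the 22 libraries, limited to 3 in either direction. Red cells run down the column of B6GFP_MD43 replicate 3 in batch 3, the highest library of its group for 33 of 36 members, and the FVB columns are mostly blue for *Ifit1*, *Usp18*, *Lgals3bp* and *Samd9l*.

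Between the wild-type lines of both strains, the question was whether the basal level of these genes differed. Some members were higher and fewer were lower in B6GFP_WT than in FVB_WT. In the limma fit (adjusted p by Benjamini-Hochberg over 14922 genes), 18 of 36 members passed 0.05, of which 13 were higher and 5 lower in B6GFP_WT. Over all genes 41.1% passed, 17.9% higher and 23.2% lower, so the members passed at about the rate of any gene and leaned towards the higher side. Their median change was 0.42 on the log2 scale, beside -0.02 over all genes, and 25 of 36 had a positive sign. For 9 members every B6GFP_WT line lay above every FVB_WT line (6.5% of genes did so, and 41.1% were called): *Irf7*, *Ifit1*, *Ifit3*, *Usp18*, *Ifi27*, *Rtp4*, *Trim25*, *Lgals3bp* and *Samd9l*. No member had all B6GFP_WT lines below all FVB_WT lines, as 9.38% of genes did. The calls rested on the array quality weights, which ranged from 0.101 (B6GFP_WT replicate 4) to 4.89. Without them 2 members passed, *Ifit1* and *Samd9l*, where 8.44% of all genes passed. In batch 1 alone, the only one that held both strains, 15 members passed, 11 of them higher, beside 34.1% of all genes. The main fit has batch terms, so its strain difference already rested largely on batch 1. The batch 1 count is therefore not a separate check. Leaving out the 2 libraries that stood apart gave 22 members, 17 of them higher, beside 41.9% of all genes. The 4 that passed newly were *Irf9* (log2 0.44, SE 0.13, adjusted p 0.0094), *Ddx58* (log2 0.42, SE 0.13, adjusted p 0.0125), *Ifih1* (log2 0.70, SE 0.26, adjusted p 0.0366) and *Ifitm3* (log2 0.59, SE 0.22, adjusted p 0.0378), and they are named after their values were seen.

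The transcription factors of the pathway did not move together. *Stat2*, part of the ISRE-binding complex, was listed at 3.68, 4.43, 4.38, 4.44 and 4.01 log2 CPM in the FVB_WT lines (in replicate order, repeat libraries of a line averaged) and at 4.40, 4.48, 4.11 and 4.41 in FVB_MD43. In B6GFP_WT it was at 3.98, 3.61, 3.74 and 3.82, and in B6GFP_MD43 at 3.73, 4.26, 3.91 and 3.19. FVB_WT replicate 1 fell among the B6GFP lines, and the other FVB lines lay above B6GFP_WT. The fitted change was log2 -0.55, SE 0.13, adjusted p 0.00148 in wild type. *Irf9*, the DNA-binding partner of STAT2, was at 2.71, 2.98, 2.86, 3.22 and 2.63 in FVB_WT and 3.57, 3.29, 3.01 and 3.35 in B6GFP_WT. It was at 2.98, 2.98, 2.66 and 3.04 in FVB_MD43 and 3.13, 2.69, 4.01 and 2.85 in B6GFP_MD43. The groups overlapped, and the wild-type change of log2 0.41, SE 0.17, adjusted p 0.0573 did not pass with all 22 libraries. *Irf1*, a factor induced by interferon gamma, ranged from 3.05 to 4.13 log2 CPM over the libraries and was higher in B6GFP_WT by log2 0.32, SE 0.12, adjusted p 0.0421. *Irf7*, the factor that amplifies type I interferon production, was at -1.78, -2.97, -1.75, -0.68 and -1.78 in FVB_WT and -2.07, -1.26, -1.76 and -1.56 in FVB_MD43. Its B6GFP_WT lines were at -0.21, -0.47, -0.54 and 0.45 and its B6GFP_MD43 lines at -0.07, -2.0, 0.95 and -2.30. All wild-type B6GFP lines lay above the FVB_WT lines (adjusted p 0.00352 by limma), at levels near or under 1 CPM.

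Among sensors and regulators of the response, *Samd9l*, a restriction factor, was at -0.65, -0.67, -0.88, -1.43 and -1.08 in FVB_WT and at -1.89, -1.17, -0.78 and -1.21 in FVB_MD43. The B6GFP_WT lines were at 1.05, 0.65, -0.06 and 1.53 and the B6GFP_MD43 lines at -0.19, 0.16, 1.19 and -0.83. B6GFP_WT lay wholly above both FVB groups, with a change of log2 1.66, SE 0.30, adjusted p 0.000156. *Trim25*, the ubiquitin ligase that activates the RNA sensor RIG-I, was at 3.13, 3.16, 2.97, 2.91 and 3.23 in FVB_WT and 4.29, 3.67, 3.39 and 3.50 in B6GFP_WT. Its MommeD43 lines were at 3.50, 3.51, 3.60 and 3.04 in FVB and 3.93, 3.55, 4.45 and 3.55 in B6GFP. The wild-type groups did not overlap (change log2 0.84, SE 0.22, adjusted p 0.00398). *Adar*, the editor of double-stranded RNA, was the most evenly expressed of these, at 5.78, 6.07, 6.01, 6.02 and 5.98 in FVB_WT and 6.09, 6.02, 6.06 and 6.02 in FVB_MD43. It was at 5.85, 5.82, 5.48 and 6.10 in B6GFP_WT and 5.76, 5.94, 5.78 and 5.93 in B6GFP_MD43. It was lower in B6GFP_WT by a small step (log2 -0.23, SE 0.062, adjusted p 0.00595), although B6GFP_WT replicate 4 was the highest wild-type line. *Usp18*, which removes ISG15 from proteins and dampens receptor signalling, was at -1.81, -2.07, -1.66, -1.70 and -2.16 in FVB_WT and -3.62, -2.05, -2.84 and -1.47 in FVB_MD43. B6GFP_WT was at 0.20, -0.42, -0.88 and 0.67 and B6GFP_MD43 at -0.37, -1.36, 0.94 and -1.65. All B6GFP_WT lines exceeded all FVB_WT lines (adjusted p 0.00921 by limma). *Eif2ak2*, encoding the RNA-dependent kinase PKR, was at 4.51, 4.70, 4.99, 4.75 and 5.23 in FVB_WT and 4.67, 4.46, 4.63 and 5.07 in B6GFP_WT. It was at 4.61, 4.71, 5.15 and 4.50 in FVB_MD43 and 4.48, 4.61, 5.22 and 3.92 in B6GFP_MD43. All groups overlapped and its change of log2 -0.19, SE 0.16, adjusted p 0.351 did not pass. The RNA sensors *Ifih1* (MDA5, -0.59 to 2.02 log2 CPM), *Ddx58* (RIG-I, 1.76 to 4.69 log2 CPM) and *Dhx58* (LGP2, -0.54 to 0.94 log2 CPM) did not pass either in wild type, with changes of 0.65, 0.37 and 0.30 and adjusted p of 0.054, 0.15 and 0.136. As given above, *Ifih1* and *Ddx58* passed without the 2 libraries that stood apart.

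Among the other induced proteins, *Lgals3bp*, *Rtp4* and *Ifi27* had wild-type lines that did not overlap. *Lgals3bp*, a secreted scavenger-receptor protein, was at -0.81, -0.68, -1.36, -1.51 and -0.99 in FVB_WT and -0.75, -1.22, -0.43 and -1.27 in FVB_MD43. It was at 0.74, 0.35, 0.33 and 2.29 in B6GFP_WT and 0.28, -0.61, 2.03 and -0.82 in B6GFP_MD43. The wild-type groups did not overlap and the change was log2 1.85, SE 0.34, adjusted p 0.000193. *Rtp4*, encoding a receptor transporter protein, was at -0.12, -0.27, -0.66, -0.21 and -1.27 in FVB_WT and 1.63, 1.12, 0.47 and 0.84 in B6GFP_WT. In the MommeD43 lines it was at -0.67, -0.08, -0.53 and 0.32 in FVB and 1.10, -0.19, 2.52 and -0.42 in B6GFP. B6GFP_MD43 replicate 3 was the highest of all lines, and the wild-type change was log2 1.73, SE 0.44, adjusted p 0.00343. *Ifi27*, a small hydrophobic protein gene, was at -0.24, -0.22, -0.73, -1.03 and -0.10 in FVB_WT and -0.71, 0.22, -0.63 and -1.02 in FVB_MD43. It was at 1.43, 0.17, 0.53 and 4.32 in B6GFP_WT and 0.91, -0.07, 2.26 and -1.22 in B6GFP_MD43. B6GFP_WT replicate 4 was far above its group mates, and the change was log2 1.64, SE 0.40, adjusted p 0.00254. *Ifi35*, which encodes a partner of NMI, was at 0.66, 0.17, 0.87, 0.76 and 0.76 in FVB_WT and 1.38, 0.89, 0.62 and 1.21 in B6GFP_WT. Its MommeD43 lines were at 1.06, 0.95, 0.70 and 0.42 in FVB and 1.05, -0.05, 1.60 and 0.91 in B6GFP. The lines overlapped, and the wild-type change of log2 0.71, SE 0.26, adjusted p 0.0328 was among the calls most easily lost.

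The IFIT genes, whose proteins bind viral RNA, differed among themselves. *Ifit1* was at -2.25, -2.78, -2.75, -1.74 and -1.74 in FVB_WT and -2.30, -2.73, -1.73 and -3.12 in FVB_MD43. It was at -0.26, 0.26, -1.08 and 0.41 in B6GFP_WT and -1.31, -2.20, 0.47 and -0.19 in B6GFP_MD43. This was the member with the smallest adjusted p, 3.88e-05 by limma, and all B6GFP_WT lines were above all FVB_WT lines. *Ifit3* was at -2.96, -2.73, -2.87, -4.21 and -2.83 in FVB_WT and -2.35, -2.92, -2.12 and -4.21 in FVB_MD43. Its B6GFP_WT lines were at -1.51, -2.11, -1.97 and -0.22 and its B6GFP_MD43 lines at -1.94, -2.25, -0.96 and -2.91. It was higher in B6GFP_WT (adjusted p 0.00538 by limma), though reads of the near-identical *Ifit3b* may be split with it. *Ifit2*, in contrast, was well expressed in all libraries (2.09 to 4.0 log2 CPM) and did not pass (change log2 0.45, SE 0.20, adjusted p 0.0763). *Isg15*, the ubiquitin-like modifier, was at -1.71, -1.31, -1.82, -3.34 and -1.27 in FVB_WT and -1.96, -2.12, -1.95 and -3.34 in FVB_MD43. It was at -1.53, -1.64, -1.74 and -0.65 in B6GFP_WT and -1.25, -3.24, -0.79 and -2.82 in B6GFP_MD43. The groups overlapped and the adjusted p by limma was 0.366. *Xaf1*, a pro-apoptotic gene, was at -3.06, -2.34, -2.56, -2.73 and -1.35 in FVB_WT and -2.67, -2.44, -2.73 and -2.73 in FVB_MD43. B6GFP_WT was at -0.73, -1.80, -1.56 and -0.66 and B6GFP_MD43 at -2.20, -1.99, -1.15 and -1.91. It passed in wild type (adjusted p 0.0208 by limma) at under 1 CPM in every library.

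The membrane restriction factors were high in both strains. *Bst2* was at 3.49, 3.94, 3.62, 4.24 and 2.74 in FVB_WT and 4.62, 4.16, 3.47 and 4.31 in B6GFP_WT. It was at 3.56, 3.48, 2.89 and 3.85 in FVB_MD43 and 4.18, 3.17, 4.47 and 4.17 in B6GFP_MD43. The groups overlapped (change log2 0.49, SE 0.23, adjusted p 0.0988). *Ifitm3* was at 4.73, 4.59, 4.54, 3.65 and 4.53 in FVB_WT and 5.23, 4.41, 4.38 and 5.53 in B6GFP_WT. Its MommeD43 lines were at 4.54, 4.68, 4.35 and 4.11 in FVB and 4.81, 4.14, 5.53 and 4.70 in B6GFP. It did not pass with all 22 libraries (log2 0.61, SE 0.24, adjusted p 0.052). *Ifitm2* was the steadiest, ranging from 5.22 to 6.11 log2 CPM over the 22 libraries.

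Of the 3 immunoproteasome subunits, which replace the standard catalytic subunits for peptide presentation, *Psmb9* and *Psmb10* were lower in B6GFP_WT. *Psmb9* was at 0.31, 0.59, 0.30, 0.06 and 1.30 in FVB_WT and -0.14, 0.08, 0.77 and -1.79 in FVB_MD43. It was at -0.88, -1.0, -1.16 and 0.22 in B6GFP_WT and -2.01, -1.90, -0.77 and -3.28 in B6GFP_MD43. B6GFP_WT replicate 4 fell among the FVB_WT lines and the other B6GFP_WT lines lay below them, with a change of log2 -1.28, SE 0.34, adjusted p 0.00509. *Psmb10* was at 4.16, 4.41, 4.26, 4.07 and 4.19 in FVB_WT and 4.09, 3.94, 4.19 and 4.14 in B6GFP_WT. It was at 4.33, 4.18, 4.31 and 4.08 in FVB_MD43 and 3.99, 3.60, 4.29 and 4.10 in B6GFP_MD43. The wild-type groups overlapped, and the change of log2 -0.21, SE 0.077, adjusted p 0.0353 was small. *Psmb8* ranged from -1.98 to 2.29 log2 CPM and did not pass (log2 -0.07, SE 0.26, adjusted p 0.85). *Gbp3* ranged from 3.03 to 6.68 log2 CPM and was lower in B6GFP_WT by a fitted log2 -0.71, SE 0.26, adjusted p 0.0354. The wild-type groups overlapped, since B6GFP_WT replicate 4, at 6.06, lay above the highest FVB_WT library, at 5.56. *Gbp2* ranged from -0.96 to 3.68 log2 CPM and did not pass (log2 -0.20, SE 0.29, adjusted p 0.624). Reads of the guanylate-binding family can be shared among near-identical copies, so their split is uncertain.

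*Oasl2*, an oligoadenylate-synthetase-like gene, ranged from -3.73 to 2.39 log2 CPM and was higher in B6GFP_WT by log2 1.10, SE 0.43, adjusted p 0.0432. The antiviral genes *Rsad2* (viperin, 0.47 to 3.86 log2 CPM), *Cmpk2* (a mitochondrial nucleotide kinase, 2.84 to 4.12 log2 CPM) and *Mx2* (a dynamin-like GTPase, -2.94 to 1.11 log2 CPM) did not pass and had changes of 0.45, -0.14 and -0.26, with adjusted p of 0.195, 0.439 and 0.591. *Parp9* (2.35 to 4.13 log2 CPM), *Parp14* (-0.59 to 2.63 log2 CPM) and *Dtx3l* (2.14 to 4.0 log2 CPM), which act in ADP-ribosylation and ubiquitination, did not pass either and had 0.04, 0.34 and -0.10, with adjusted p of 0.877, 0.372 and 0.684. *Parp9* and *Dtx3l* have overlapping spans on chromosome 16, so reads there cannot be told apart without strand, and whether strand was used in counting is not given in the sources used here. The plot of levels in each library shows 8 of the members that separated the groups or failed to.

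**Figure D2:**
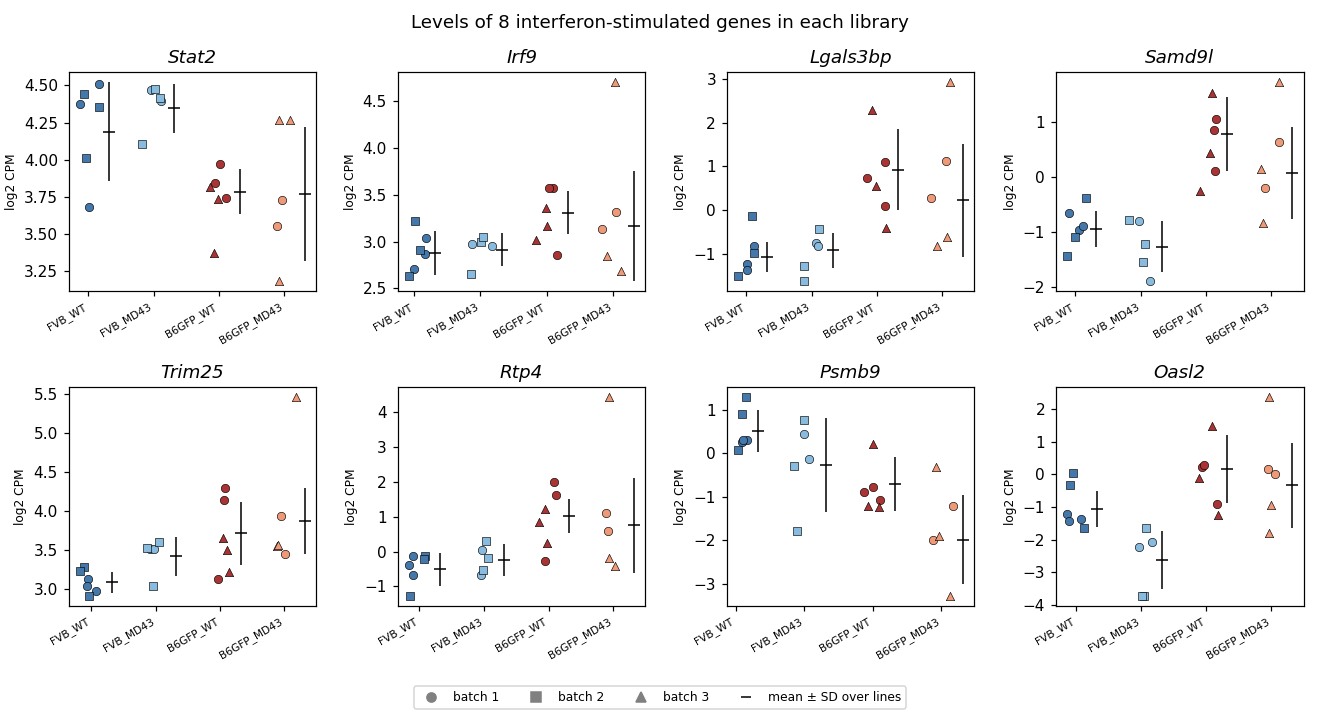
Log2 CPM of 8 members in each library (points, shaped by batch) of the 4 groups, with mean ± SD over lines (black bars). *Lgals3bp* and *Samd9l* sit higher in B6GFP_WT than in FVB_WT, *Stat2* and *Psmb9* sit lower, and the highest B6GFP_MD43 triangle in *Irf9*, *Trim25*, *Rtp4* and *Oasl2* is replicate 3 of batch 3.

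The same comparison between MommeD43 lines used no sample of the wild-type comparison, although both came from one fit. Of 36 members, 13 passed, 10 higher and 3 lower in B6GFP_MD43 than in FVB_MD43, beside 34.4% of all genes (14.7% higher and 19.6% lower). The median change was 0.34 (all genes -0.03) and 25 of 36 were positive. Of these calls, 10 were shared with the wild-type comparison, which is 10 of its 18 calls and 10 of these 13, and all 10 had the same direction: *Adar*, *Ifit1*, *Ifit3*, *Irf7*, *Lgals3bp*, *Oasl2*, *Psmb9*, *Samd9l*, *Stat2* and *Usp18*. Over all genes 70.8% of the wild-type calls and 84.6% of the MommeD43 calls were shared, and 4337 of 4338 shared calls had the same direction, both shares being larger than those of the members. *Oasl2* was higher in B6GFP_MD43 by a fitted log2 2.48, SE 0.50, adjusted p 0.000679. Both group means lay below 1 CPM and 2 FVB_MD43 libraries were at the value of 0 reads, so the size of this change is uncertain. *Psmb9* was again lower (log2 -1.90, SE 0.40, adjusted p 0.00103), as was *Stat2* (log2 -0.73, SE 0.15, adjusted p 0.000659) and, by less, *Adar* (log2 -0.30, SE 0.073, adjusted p 0.00338). *Lgals3bp* (log2 1.51, SE 0.40, adjusted p 0.00612) and *Samd9l* (log2 1.27, SE 0.35, adjusted p 0.00773) were again higher. *Dhx58* (log2 0.61, SE 0.19, adjusted p 0.0149), *Ifitm2* (log2 0.33, SE 0.10, adjusted p 0.0096) and *Rsad2* (log2 0.82, SE 0.32, adjusted p 0.0496) passed here and not in wild type, a difference that the interaction test below did not call. All B6GFP_MD43 lines lay above all FVB_MD43 lines for *Dhx58* and *Xaf1* and below them for *Adar* (9.85% of genes were higher in this way and 11.5% lower). Without quality weights 0 members passed (7 at an unadjusted p under 0.05), where 6.82% of all genes passed. In batch 1 alone 11 passed, 8 of them higher, beside 24.1% of all genes, again not a separate check. Without the 2 libraries that stood apart 15 passed, beside 35.5% of all genes. *Ifi27*, *Rtp4* and *Gbp3* were then added and *Irf7* was lost (adjusted p 0.061). Without replicate 3 of B6GFP_MD43 altogether 21 passed, in a fit whose highest quality weight was 10.87. Its share of all genes called is not given, so that count is not a result about the members alone.

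**Figure D3:**
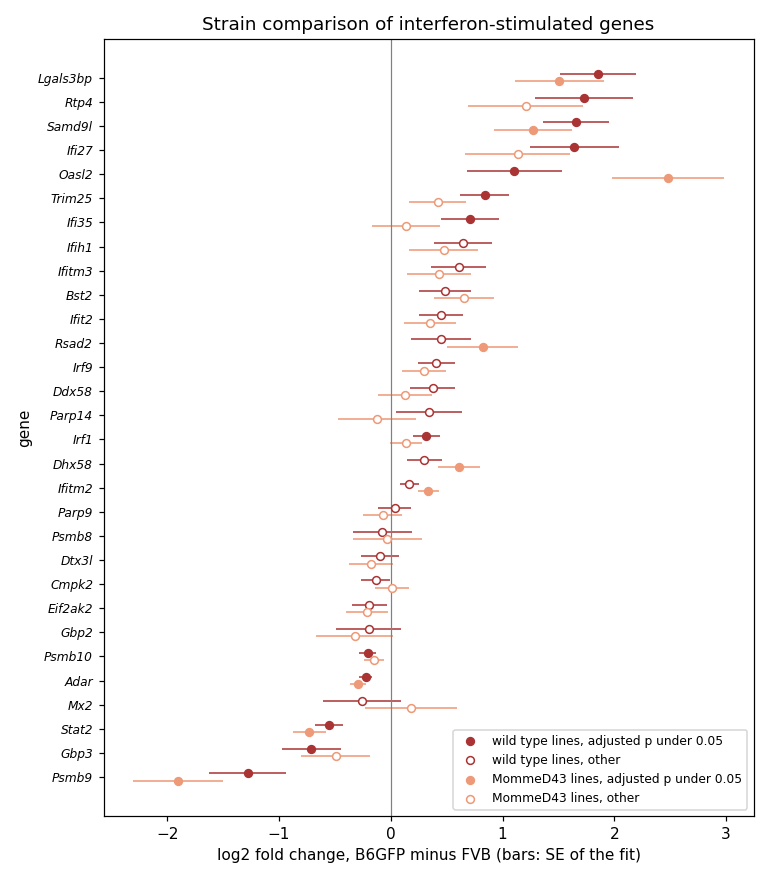
Fitted log2 fold change of B6GFP over FVB with SE bars for the 30 members that reached 1 CPM in a group mean, in wild-type lines (dark) and MommeD43 lines (light). Filled points passed an adjusted p of 0.05. *Lgals3bp*, *Samd9l* and *Oasl2* lie to the right in both, *Psmb9*, *Stat2* and *Adar* to the left in both.

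The effect of MommeD43 was asked in each strain. In FVB no member passed, where 0.0737% of all genes did (11 genes). By limma 3 members had an unadjusted p under 0.05, as did 6.86% of all genes. The members' median change was 0.01 (all genes 0.01) and 18 of 36 were positive. *Oasl2* came closest. Its FVB_WT lines were at -1.22, -0.67, -1.43, -0.32 and -1.65 and its FVB_MD43 lines at -2.23, -2.91, -1.64 and -3.73, so MommeD43 replicates 1, 2 and 5 lay below the wild-type lines and replicate 4 just inside them. The batch 2 libraries of replicates 2 and 5 shared the lowest value of that batch, that of 0 reads. The fitted change of log2 -1.29, SE 0.38, adjusted p 0.307 did not pass. *Ifi35* was next (log2 0.57, SE 0.23, adjusted p 0.58), with overlapping lines. For *Dtx3l* alone every FVB_MD43 line lay above every FVB_WT line, as for 0.469% of all genes. No member had all FVB_MD43 lines below, as 0.576% of genes did. When FVB_MD43 replicate 2 was left out, *Usp18*, *Samd9l* and *Ifi35* passed in this comparison (3 members, named after their values were seen). The highest quality weight in that fit was 26.46, beside 4.89 with all lines. Its share of all genes called is not given, so these calls are not a result about the members alone.

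In B6GFP no member passed by limma and 2 had an unadjusted p under 0.05 (2.14% of all genes did), and 0% of all genes passed. The median change was -0.01 (all genes 0.01) and 17 of 36 were positive. *Psmb9*, whose B6GFP lines are given above, had log2 -0.95, SE 0.39, adjusted p 1. *Ifitm2* was at 5.61, 5.71, 5.47 and 5.32 in B6GFP_WT and 5.63, 5.29, 6.07 and 5.85 in B6GFP_MD43, beside 5.46, 5.46, 5.38, 5.29 and 5.41 in FVB_WT and 5.44, 5.48, 5.47 and 5.22 in FVB_MD43. B6GFP_MD43 replicates 3 and 4 were above the wild-type lines and replicate 2 was below them (log2 0.19, SE 0.093, adjusted p 1). Without B6GFP_MD43 replicate 3, *Psmb9* and *Samd9l* passed as lower in MommeD43, and without replicate 1 *Ifitm2* passed as higher. The highest quality weights in these fits were 10.87 and 5.258. Their shares of all genes called are not given, so these calls are not results about the members alone. Averaged over strains no member passed by limma (3 at an unadjusted p under 0.05, as were 4.62% of all genes), beside 0.0335% of genes. *Psmb9* (log2 -0.64, SE 0.25, adjusted p 0.98) and *Gbp2* (log2 -0.49, SE 0.21, adjusted p 0.999) had the smallest p. *Gbp2*, an interferon-gamma-induced GTPase, was at 0.67, 1.91, 1.44, 1.39 and 0.34 in FVB_WT and 0.88, 0.97, 0.98 and 0.30 in FVB_MD43. It was at 1.24, 0.61, 0.92 and 3.68 in B6GFP_WT and 0.49, -0.96, 1.62 and -0.46 in B6GFP_MD43. Within each strain the groups overlapped. The difference of the MommeD43 effect between strains was called for no member by limma (1 at an unadjusted p under 0.05, *Oasl2*, with log2 1.38, SE 0.62, adjusted p 1, beside 3.08% of all genes) and for 0% of genes. *Ifi35* was next, at log2 -0.57, SE 0.37, adjusted p 1. With 4 or 5 lines per group an effect of the size of these SEs was not detectable and need not be absent.

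Many of the highest member values in B6GFP came from single libraries. B6GFP_MD43 replicate 3 was sequenced in batch 1 and again in batch 3. In the second library 34 of 36 members were higher, with a median rise of 1.25 log2 CPM, and 24 members rose by over 1, as only 1.12% of all genes did. *Rtp4* went from 0.58 to 4.45 log2 CPM, and *Parp14* from 0.49 to 2.63. *Oasl2* went from 0.02 to 2.39 and *Gbp3* from 4.57 to 6.68. *Irf9* rose from 3.31 to 4.70, while *Adar* (5.73 and 5.84) and *Ifit2* (3.56 and 3.41) stayed close together. The median of all genes differed by -0.01 between these libraries. Of 40 other interferon-stimulated genes outside the list, 17 rose by over 1 and their median rise was 0.84. The other 4 lines that were sequenced in 2 batches had median differences of 0.26 (FVB_WT replicate 2), -0.10 (FVB_MD43 replicate 2), -0.48 (B6GFP_WT replicate 2) and 0.12 (B6GFP_WT replicate 3) over the members. The depth of the high library was 0.438 of the deepest, its quality weight was 0.348, and the summed level of its 7 NSC markers was 12.7 log2 CPM in a group range of 12.4 to 12.7. Its 2 microglia and macrophage markers in the table summed to 2.34, the highest of the group (1.67 to 2.34), with *P2ry12* at 1.55, the highest of 22 libraries, and *Cd68* at 1.09. The 5 oligodendrocyte-lineage markers (9.67) and the 4 astrocyte markers (5.62) also had their highest sums of the group, whose ranges were 9.29 to 9.67 and 5.06 to 5.62. The 5 neuronal markers summed to 6.14 (group range 5.46 to 8.60), the 7 endothelial markers to 1.42 (0.71 to 3.89) and the 6 mesenchymal markers to 0.52 (-0.07 to 2.83). The part of these in the rise was not tested.

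**Figure D4:**
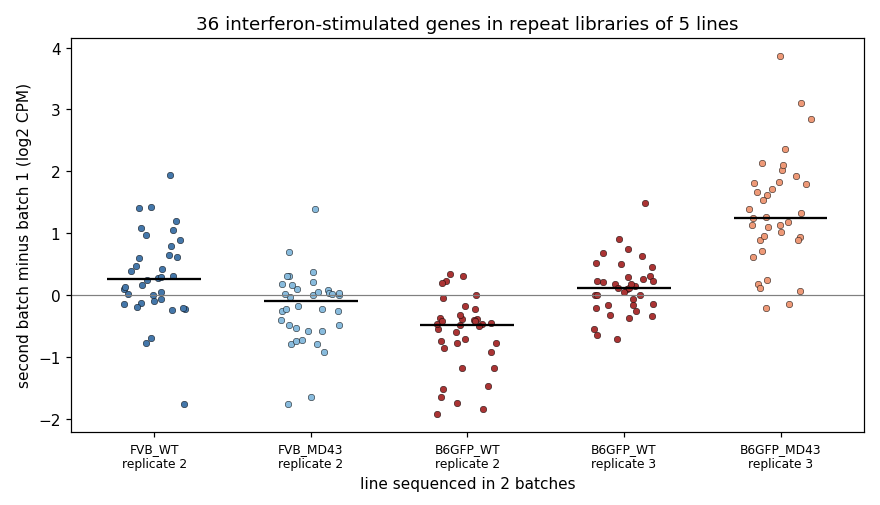
Difference between the libraries of the same line in log2 CPM (second batch minus batch 1) for the 36 members (points) in the 5 lines sequenced in 2 batches, with the median as a line. The points of B6GFP_MD43 replicate 3 have a median of 1.25, and those of the other 4 lines have medians between -0.48 and 0.26.

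The second library that stood apart, B6GFP_WT replicate 4, was made in batch 3 only. It held the highest value of its group for 21 members (33.6% of genes did so) and lay 0.50 above the group median over the members. *Ifi27* reached 4.32 log2 CPM there, *Gbp2* 3.68 and *Psmb8* 2.29. This library was the deepest (relative depth 1) and had the lowest quality weight, 0.101. Summed levels of 6 marker lists were the highest of the group there, mostly through single genes. The microglia and macrophage sum was 3.48 (group range 1.41 to 3.48), with *Cd68* at 3.36, the highest of 22 libraries, and *P2ry12* at -0.11, below its mean of 0.35. The endothelial sum was 2.35 (0.46 to 2.35), with *Kdr* at 1.93, while *Cldn5* and *Tie1* were at their lowest values of the 22 libraries. The mesenchymal sum was 4.80 (-0.58 to 4.80), with *Acta2* at 4.73, while *Dcn* was at its lowest value and *Col1a1* below its mean. The neuronal sum was 6.91 (5.21 to 6.91), with *Syt1* at 6.86, while *Tubb3* was at its lowest value and *Dcx*, *Rbfox3* and *Snap25* below their means. The 4 astrocyte markers summed to 6.71 (4.35 to 6.71), each above its mean, and the 7 NSC markers to 12.9 (12.4 to 12.9). The 5 oligodendrocyte-lineage markers had the lowest sum of the group, 8.71 (8.71 to 9.59). *Aif1*, *Ptprc* and *Csf1r* were not in the table, and the part of these markers in the members' levels was not tested.

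B6GFP_MD43 replicate 3 weighed on the comparison of genotypes within batch 3 of B6GFP. As differences of unweighted means with no test, the median member differed by -0.04 between MommeD43 and wild type in batch 1 (16 of 36 higher) and by -0.02 in batch 3 (17 of 36 higher). Without B6GFP_MD43 replicate 3 the batch 3 median was -0.67, with 4 of 36 higher. That contrast kept the high wild-type library, B6GFP_WT replicate 4, and left the low libraries of B6GFP_MD43 replicates 2 and 4. The same difference without both high libraries was not computed. A shift shared by all libraries of a batch, such as that of the equal batch means, cancels by arithmetic in a within-batch difference. The cause of the differences in batch 3 was not tested. The weighted fit within batch 3 instead gave a median of 0.84, with 34 of 36 positive and 0 members passing (2 at an unadjusted p under 0.05, limma), so the sign in that batch depended on how 6 libraries were weighted. In the fit over both batches the median moved from -0.01 to -0.17 without that library, and to -0.16 without both, with 0 members passing by limma each time and 4 at an unadjusted p under 0.05.

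**Figure D5:**
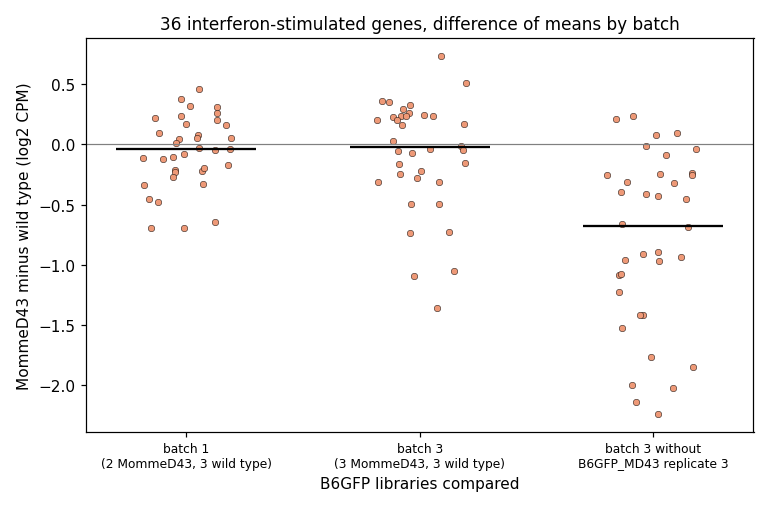
Difference of means between MommeD43 and wild-type B6GFP libraries in log2 CPM for the 36 members (points), in batch 1, in batch 3, and in batch 3 without B6GFP_MD43 replicate 3, with the median as a line. The medians are -0.04, -0.02 and -0.67. B6GFP_WT replicate 4 was kept in batch 3 throughout.

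Across the 22 libraries, after subtraction of group means, most members rose and fell together, in B6GFP more than in FVB. Pearson's r of each member with the mean of the other members had a median of 0.77 and was over 0.5 for 31 of 36, beside a median of -0.03 and 8.79% of genes outside the list (r with the mean of all members). Without the 2 libraries the median was 0.54 and 19 of 36 exceeded 0.5 (3.32% of other genes). Within the 9 remaining B6GFP libraries the median was 0.68, and 27 of 36 exceeded 0.5 (6.6% of other genes). Within the 11 FVB libraries it was 0.36, and 10 of 36 exceeded 0.5 (16.5% of other genes). These are descriptions over libraries that share lines and batches, with no test. *Irf9* (r 0.94), *Ddx58* (0.96), *Parp14* (0.91), *Lgals3bp* (0.91) and *Usp18* (0.90) followed the others most closely in those 9 B6GFP libraries, and *Adar* (-0.09), *Dhx58* (-0.12) and *Stat2* (0.13) least. Members with an ISRE core in their window were found at both ends of this order, *Ddx58* and *Stat2* among them.

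Genes above and beside the list were set next to it. Of 29 upstream pathway genes in the table (receptors, kinases, factors, inhibitors, nucleic acid sensors and nucleases), 17 passed between wild-type strains, 10 higher and 7 lower, beside 41.1% of all genes, with a median change of 0.06. The smallest p belonged to *Tmem173*, which encodes the DNA-sensing adaptor STING (log2 1.54, SE 0.13, adjusted p 5.63e-09), *Trex1*, a DNA exonuclease (log2 0.85, SE 0.095, adjusted p 5.08e-07), *Rnaseh2b*, an RNase H2 subunit (log2 0.42, SE 0.061, adjusted p 1.58e-05), and *Jak2*, a receptor kinase (log2 0.49, SE 0.073, adjusted p 2.16e-05), all higher in B6GFP_WT. Of 40 further interferon-stimulated genes, 24 passed, 13 higher and 11 lower, with a median of 0.08. *Pml*, the nuclear body scaffold, was higher (log2 1.51, SE 0.11, adjusted p 4.93e-10). *Tor3a* (log2 -1.40, SE 0.11, adjusted p 3.86e-09), *Gbp7* (log2 -1.58, SE 0.17, adjusted p 4.17e-07) and *Gbp4* (log2 -2.69, SE 0.30, adjusted p 5.36e-07) were lower. In MommeD43 lines 9 of the 29 and 21 of the 40 passed between strains, where 34.4% of all genes did. Neither list had a member that passed in a MommeD43 comparison by limma. At an unadjusted p under 0.05, 4 of the 29 and 4 of the 40 did in FVB, 1 and 0 in B6GFP, 0 and 2 averaged over strains, and 4 and 2 in the difference between strains. Of all genes, 6.86%, 2.14%, 4.62% and 3.08% did in these comparisons, in the same order.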

How the data were processed

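RNA sequencing of 24 NSC samples (6 per group) was deposited as 1 table of log2 CPM for 14922 genes, corrected by the authors for batch (through lines repeated across batches), sex and strain, as the study's methods state. Per the submitters' processing notes, Trim Galore 0.4.4, HISAT2 2.0.5, limma 3.40.6 and GRCm38.p6 were used. The counter's strand setting is not given in the sources used here. Of values within 10 steps of the lowest, 3143 of 3143 were whole steps (tolerance 0.02), which gave relative depth only, so no counting intervals are given.

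The 2 columns equal to the mean of their group mates were left out. The deposited log2 CPM were fitted with limma 3.58.1 (R 4.3.3) on group and batch, with array quality weights, line as a block (correlation 0.0827), a mean-variance trend and Benjamini-Hochberg adjustment over 14922 genes (threshold 0.05). No pseudocount was added in this fit. Blank symbols (247 genes) stayed in the fit.

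The members and both further gene lists were chosen with earlier results of these data known. Each member is named with its range or its values. Line values are given for the 15 wild-type strain calls with the smallest p, for the 2 smallest p of each MommeD43 comparison, and for *Stat2*, *Irf7*, *Irf9*, *Isg15*, *Ifit1*, *Bst2*, *Ifitm3* and *Eif2ak2*. Of each further list the 4 smallest p are named. Alternatives changed weights, blocks, filters, centring, batches and lines.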

Additional observations from a re-analysis of the deposited data

Results flagged for a closer look

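In 144 groups of line values (36 members in 4 groups), 7 held a line far below its group mates by Dixon's gap criterion, where chance at 1 in 20 gives 7.2. FVB_MD43 replicate 5 was far below the others for *Isg15* (-3.34 log2 CPM, nearest line -2.12), *Trim25* (3.04, nearest 3.50) and *Gbp2* (0.297, nearest 0.880). FVB_WT replicate 4 was far below for *Isg15* (-3.34, nearest -1.82), *Ifit3* (-4.21, nearest -2.96) and *Ifitm3* (3.65, nearest 4.53). The *Isg15* and *Ifit3* values are those of 0 reads in batch 2. *Dtx3l* was lowest in B6GFP_WT replicate 3 (2.45, nearest 2.93).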

How the results depend on the processing

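The number of members called between strains depended on the quality weights. Without them 2 passed in wild type and 0 in MommeD43 lines (limma, 7 at an unadjusted p under 0.05), where 8.44% and 6.82% of all genes passed. With them 41.1% and 34.4% of all genes passed, so the call rate of all genes moved with the setting as well. For the settings that follow no share of all genes is given, so their counts are not results about the members alone. With 1 mean per line and no weights 8 and 6 passed, and without the 2 libraries that stood apart and no weights 8 and 4 (both chosen after seeing the data). With all 24 columns, 35 passed between MommeD43 lines, 1 for MommeD43 in FVB, 3 in B6GFP and 5 averaged. In that fit the highest quality weight was 805.3, beside 4.89 with the 22 libraries. Leaving out each line in turn gave 9 to 23 calls in wild type (9 without B6GFP_WT replicate 2, 11 without FVB_WT replicate 2) and 10 to 21 in MommeD43 lines (21 without B6GFP_MD43 replicate 3). For MommeD43 it gave 0 to 3 in FVB (3 without FVB_MD43 replicate 2), 0 to 2 in B6GFP (2 without replicate 3 and 1 without replicate 1 of B6GFP_MD43), 0 averaged and 0 for the difference between strains. Centring each library on its median gave 21 wild-type calls, 17 of them higher. The replicate numbers did not pair the samples (correlations of deviations from -0.48 to 0.14), and with the replicate number as the block 18 and 13 members passed between strains and 0 in each MommeD43 comparison. For single genes, 618 alternative values kept direction and side of the threshold, 29 passed newly, 39 no longer passed and 0 changed direction. The cause was not tested. Depth limits the members below 1 CPM most, in batch 2.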
